A study of Mus musculus with 4 samples.

Results

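The genes described here encode the proximal signalling machinery of the T cell receptor (TCR), the proteins at the membrane that turn receptor engagement into the first intracellular signals. The set holds 39 genes, given by symbol, and its probes were found through the RefSeq transcript accession printed on the array. All 39 genes were on the array, with 50 probes, among 19896 named genes. RNA came from CD4 T cells, the helper lymphocytes, taken from lymph nodes of male mice of 7 weeks, and was read on single-colour Agilent microarrays. The study crossed genotype, wildtype or Med23 knockout, with stimulation, none or 6 h, and asks which TCR-induced genes depend on Med23, a subunit of the Mediator complex that connects transcription factors with RNA polymerase II. Each of the 4 groups had 1 array, so no difference has a replicate check and no p-value is given. The sources used here do not give how the knockout was made, how the T cells were selected or which agent stimulated them.

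The receptor itself has no enzymatic activity. Its CD3 and zeta chains carry tyrosines that the kinase LCK phosphorylates, ZAP70 docks there and phosphorylates the scaffolds LAT and SLP-76, and these gather enzymes that open the calcium, Ras and NF-kB branches. Some of the phosphatases and the inhibitory adaptors hold the cascade back in resting cells, and several of them return the cell to rest after stimulation.

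A level is the log2 signal of a gene minus the log2 75th percentile of its array, set to a floor of -5.01 where it was lower, and differences are differences of such levels. A gene is called higher or lower at a 2-fold difference, 1 on the log2 scale. Over probes printed as 10 spots, differences between arrays varied from spot to spot with an SD (log2) of 0.0964 to 0.109 at levels above 1, 0.259 to 0.327 between -3 and 1, and 0.590 to 0.816 below -3, so dim genes are the least precise. These SDs cover spots, not animals or cultures. Of the 39 genes, 37 were above the floor in every array, Pag1 was at the floor in the stimulated array labelled knockout, and Sos1, a Ras activator recruited by GRB2, was at the floor throughout and has no value.

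The stimulated wildtype array was the brightest, with a 75th percentile of 680.8 signal units against 243.7 to 332.6 in the others. Med23 had levels of -1.59 and -0.75 in the unstimulated and stimulated wildtype arrays and of -1.66 and -2.29 in those labelled knockout. Since it differed by only -0.07 between the unstimulated arrays, that pair does not bear out its labels. The position of the probe relative to the deletion is unknown, so this value cannot decide the genotype. The arrays are called labelled knockout throughout. All 12 genes chosen as a check of stimulation, such as Nr4a1, Il2 and Cd69, were 2-fold higher after stimulation in both genotypes. All 14 T cell markers were above the floor in every array, which bears out the labelled cell type. Their summed linear level was 704.6 without and 419.1 with stimulation in wildtype, and 654.0 and 454.7 in labelled knockout. Neutrophil markers (10 of 10 above the floor, summed level 261.3) and red cell markers (8 of 10, 155.7) were high in the stimulated wildtype array. In the other 3 arrays 4 or 5 and 3 or 4 of 10 were above the floor, with sums of 2.35 to 2.94 and 0.664 to 0.802. Of 11 measured myeloid and dendritic markers, 9 were 2-fold higher after stimulation in wildtype (median 1.41) and 0 in labelled knockout. Their sum, 83.3 in the stimulated wildtype array and 48.1 to 66.5 elsewhere, includes Ctss, which was lower (-1.16 and -1.21), and Ccl22 was at the floor in every array. B cell markers (0.704 to 1.93), natural killer cell markers (0.566 to 1.12, Ncr1 and Klrk1 at the floor in all arrays) and CD8 T cell markers (1.05 to 2.56) were low in every array. The part of the admixed RNA in the differences that use the stimulated wildtype array was not tested. In such bulk samples, fewer cells of a type and less RNA per cell cannot be told apart.

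After stimulation more of these genes were lower than higher. In wildtype, 13 of the 38 measured genes were 2-fold lower and 2 were higher, where 27% of all measured genes differed 2-fold either way. Thus 34.2% were lower, against 12.8% of all measured genes, and 5.26% were higher, against 14.2%. In the arrays labelled knockout, which use neither wildtype array, 12 were lower and 7 higher, where 27.3% of all genes differed either way. That is 31.6% lower against 13.8% of all genes and 18.4% higher against 13.5%. The median difference was -0.31 in wildtype and -0.56 in labelled knockout, beside -0.02 and 0.05 over all genes. The share that was lower thus exceeded that of all genes in both genotypes, while the share that was higher lay below it in wildtype and near it in labelled knockout. Among the 14 T cell markers, 7 (50%) were 2-fold lower in wildtype and 6 (42.9%) in labelled knockout, and 0 were higher. These markers include Cd3e, Cd4, Trat1 and Cd5 of this group. A share of lower genes above that of all genes was thus not particular to this group. Over the 12217 genes above the floor in every array, 13.6% were lower in each genotype, as were 12 of the 37 genes of this group. With scaling to the median the wildtype split was 17 lower and 2 higher, and in the authors' values 12 and 2.

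The genotypes, which share no array in this comparison, shared most of the lower genes. The same 10 genes were lower in both, 26.3% of the 38 against 7.72% of all genes measured in both, namely Cd3g, Cd4, Txk, Grap2, Skap1, Themis, Was, Ubash3a, Sit1 and Sla2. Only Sla was higher in both, 2.63% against 7.13% of all genes. A further 15 were past the threshold in neither genotype, and none was past it in opposite directions. The sign was shared by 36 of 38 genes (94.7%), against 69.2% of all genes, the exceptions being Tec and Cd6.

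**Figure D1:**
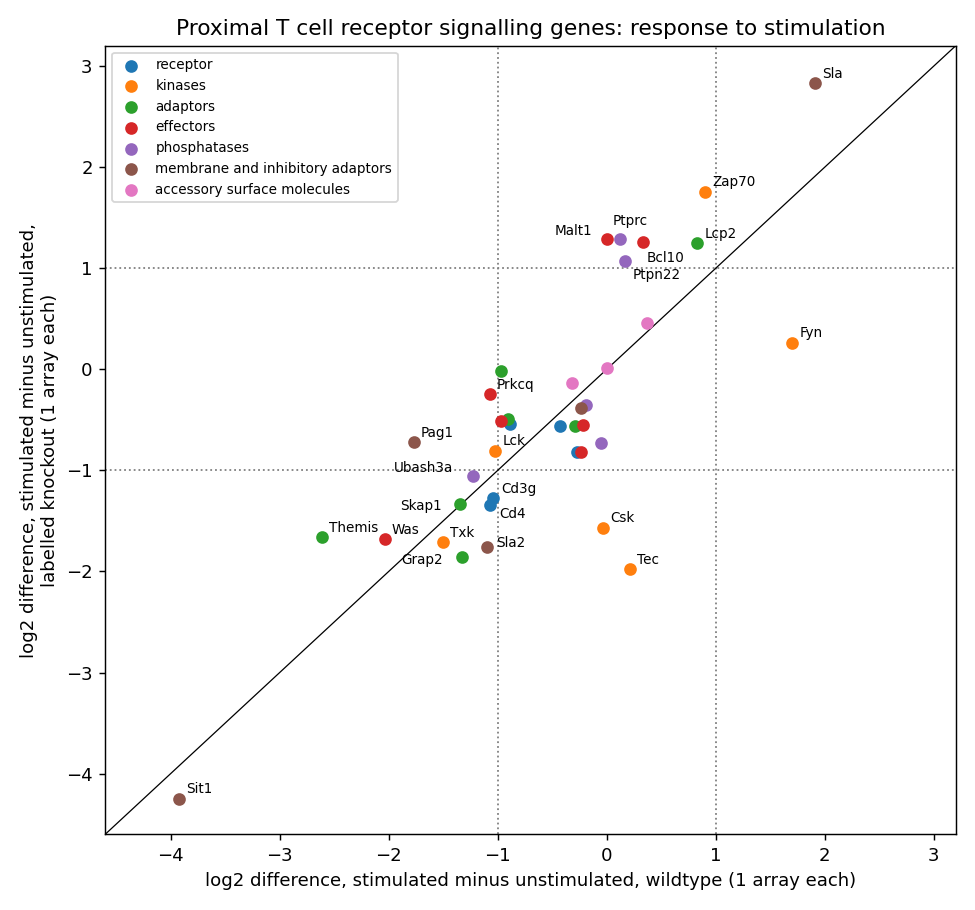
Log2 difference after stimulation in wildtype (x axis) and in the arrays labelled knockout (y axis) for the 38 measured genes, 1 point per gene, coloured by role, with names for genes past 2-fold (dotted lines) in either genotype. Sit1 lies lowest at -3.93 and -4.25 and Sla highest in labelled knockout at 2.83, while Fyn, Csk and Tec lie furthest below the line of equal differences.

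Among the receptor chains, none was 2-fold higher and Cd3g and Cd4 were lower in both genotypes. Cd3g, an invariant signalling chain, had levels of 6.14 and 5.09 without and with stimulation in wildtype and 6.49 and 5.21 in labelled knockout. Both stimulated arrays lay below both unstimulated ones, by 2.07-fold in wildtype (-1.05) and 2.42-fold in labelled knockout (-1.28). Cd4, the coreceptor that binds MHC class II and carries LCK, had levels of 2.62, 1.54, 2.36 and 1.01 in the same order, differences of -1.07 and -1.34. These levels are means of 2 probes far apart, at 6.56 and -1.32 in the unstimulated wildtype array. The brighter probe gave differences of -1.40 and -1.94 and the dimmer probe -0.74 and -0.75. Both thus pointed down, with the dimmer probe under 2-fold in each genotype.

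The other chains stayed within 2-fold. Cd3e had levels of 7.86 and 6.97 in wildtype and 7.90 and 7.36 in labelled knockout, that is -0.89 and -0.54, and passed the threshold in wildtype with scaling to the median (-1.13). Cd3d differed by -0.43 and -0.56, and Cd247, the zeta chain, by -0.28 and -0.81. Cd3g, Cd3d and Cd3e are neighbouring genes on chromosome 9, and all of their differences were negative, with that of Cd3g the most negative in each genotype.

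The kinases went both ways. Lck, which starts the cascade by phosphorylating the receptor chains, had levels of 7.01 and 5.99 in wildtype and 6.99 and 6.18 in labelled knockout, differences of -1.02 and -0.81. Zap70, which docks on the phosphorylated chains, went the other way, with levels of 4.96, 5.87, 4.98 and 6.73, differences of 0.91 in wildtype and 1.76 (3.38-fold) in labelled knockout. Both of its probes were higher after stimulation in both genotypes, by 0.60 and 1.21 in wildtype and by 1.69 and 1.83 in labelled knockout. Lck was thus just past 2-fold in wildtype and Zap70 past it in labelled knockout, in opposite directions. The Lck call was lost with a pseudocount (-0.99). The stimulation differences of the genotypes lay 0.22 apart for Lck and 0.85 apart for Zap70.

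Txk, a TEC family kinase that acts on phospholipase C, had levels of 4.10, 2.59, 3.85 and 2.14 in the same order, and was 2.83-fold lower in wildtype and 3.27-fold lower in labelled knockout. Tec, its neighbour on chromosome 5 and a kinase of the same family, had levels of -2.27, -2.06, -1.82 and -3.80. It did not follow Txk in wildtype (0.21, its probes -0.24 and 0.67, and -0.03 with scaling to the median) and was lower in labelled knockout (-1.98, its probes -1.31 and -2.65). Tec is dim, and 1 of its probes was at the floor in the stimulated array labelled knockout.

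Fyn, a SRC family kinase related to LCK, and Csk, the kinase that keeps LCK inactive, had unlike values in the genotypes. Fyn had levels of 0.20 and 1.91 in wildtype and 0.59 and 0.86 in labelled knockout, so it was 3.26-fold higher after stimulation in wildtype (1.70) and differed by 0.26 in labelled knockout. Csk had levels of 0.65 and 0.62 in wildtype and 0.97 and -0.59 in labelled knockout, differences of -0.03 and -1.57. Each has 1 probe.

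The scaffold Lat, which ZAP70 phosphorylates, stayed within 2-fold, with levels of 5.79 and 5.50 in wildtype and 5.67 and 5.11 in labelled knockout (-0.29 and -0.56). Lcp2, encoding SLP-76, was the adaptor with the highest differences, with levels of 1.06, 1.89, 1.07 and 2.32 and differences of 0.83 and 1.25. Grap2, encoding GADS, which bridges LAT to SLP-76, had levels of 0.03, -1.29, 0.26 and -1.60 and was 2.50-fold and 3.62-fold lower (-1.32 and -1.86). Of these 3 physically linked proteins, the transcript of the bridge was lower in both genotypes and that of SLP-76 was not.

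Skap1, an adaptor linking the receptor to integrins, had levels of 5.79 and 4.44 in wildtype and 6.03 and 4.70 in labelled knockout and was lower by the same amount in each (-1.34 and -1.34). Themis, an adaptor needed for thymocyte selection, had levels of -0.13, -2.74, 0.05 and -1.62, and was 6.11-fold lower in wildtype (-2.61) and 3.17-fold lower in labelled knockout (-1.66). Both Themis probes were lower in each genotype, at -2.41 and -2.81 in wildtype and -1.51 and -1.82 in labelled knockout. Grb2, which recruits SOS to LAT, differed by -0.91 and -0.49, and Nck1, which links the complex to actin, by -0.97 and -0.02.

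Among the effectors, the actin regulator was lower and the NF-kB branch was higher in labelled knockout. Was, encoding the WASP protein that drives actin branching, had levels of 3.94 and 1.90 in wildtype and 4.16 and 2.48 in labelled knockout, and was 4.11-fold and 3.21-fold lower (-2.04 and -1.68). Prkcq, the protein kinase C isoform of the T cell synapse, had levels of 4.04, 2.97, 3.63 and 3.38 and was lower in wildtype (-1.07, against -0.25 in labelled knockout). Bcl10 and Malt1 encode proteins of the complex that passes the signal to NF-kB. Bcl10 had levels of 2.79, 3.13, 2.53 and 3.78, differences of 0.34 and 1.26. Malt1 had levels of 3.66 and 3.67 in wildtype and 3.53 and 4.83 in labelled knockout, differences of 0.01 and 1.29. Both were thus higher in the stimulated array labelled knockout than in the other 3 arrays. Malt1 fell just short of 2-fold there in the authors' values and with quantile normalization, where its lowest value was 0.99.

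The enzymes next to the scaffold stayed within 2-fold in both genotypes. Plcg1, the phospholipase that makes the calcium and diacylglycerol signals, differed by -0.97 and -0.51, and in wildtype passed the threshold in 5 of the 9 alternatives. Vav1, an activator of RAC, differed by -0.22 and -0.55, and Rasgrp1, the diacylglycerol-driven Ras activator, by -0.23 and -0.82.

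The phosphatases gave 2 genes higher in labelled knockout and 1 lower in both genotypes. Ptprc, encoding CD45, which removes the inhibitory phosphate from LCK, had levels of 5.83 and 5.96 in wildtype and 5.59 and 6.87 in labelled knockout, differences of 0.12 and 1.29. Ptpn22, which dephosphorylates LCK and ZAP70, had levels of 4.03, 4.20, 4.05 and 5.12, differences of 0.17 and 1.07, the second under 2-fold in 3 of the 9 alternatives. For both genes the stimulated array labelled knockout was the highest of the 4. Ubash3a, a suppressor of TCR signalling, had levels of 0.08, -1.15, 0.21 and -0.84 and was lower in each genotype (-1.23 and -1.05). Ptpn6, encoding SHP-1, differed by -0.19 and -0.35, and Ptpn7, a phosphatase of ERK, by -0.05 and -0.73.

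The membrane and inhibitory adaptors held the lowest and the highest of the 38 differences in each genotype, those of Sit1 and Sla. Sit1, a transmembrane adaptor that recruits a phosphatase and dampens TCR signals, had levels of 4.10 and 0.18 in wildtype and 3.85 and -0.40 in labelled knockout. It was 15.2-fold lower in wildtype (-3.93) and 19.0-fold lower in labelled knockout (-4.25). Sla, encoding the SRC-like adaptor SLAP, which promotes turnover of receptor chains, had levels of 1.51 and 3.42 in wildtype and 1.40 and 4.23 in labelled knockout. It was 3.75-fold and 7.11-fold higher (1.91 and 2.83), and each stimulated array lay above both unstimulated ones.

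Sla2, encoding the related adaptor SLAP-2, went the opposite way to Sla, with levels of -1.06, -2.16, -0.98 and -2.74 and differences of -1.10 and -1.76. Both Sla2 probes were lower in each genotype, at -0.89 and -1.30 in wildtype and -1.25 and -2.27 in labelled knockout, and the wildtype call was lost in 3 alternatives. Pag1, a membrane adaptor that brings CSK to LCK, was dim, with levels of -3.04, -4.81 and -4.29 and a value at the floor in the stimulated array labelled knockout. Its differences were -1.77 in wildtype and at most -0.72 in labelled knockout. Trat1, an adaptor that associates with the receptor chains, differed by -0.23 and -0.39.

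The accessory surface molecules stayed within 2-fold in both genotypes. Cd2, an adhesion receptor, differed by -0.32 and -0.14, Cd5, an inhibitory receptor, by 0.37 and 0.46, and Cd6, a receptor of the same family encoded near Cd5 on chromosome 19, by -0.00 and 0.02. Each of the 3 had a level above 2 in every array. That of Cd6 is the mean of 2 probes far apart, at 6.02 and 0.54 in the unstimulated wildtype array. Its probes differed in sign after stimulation in both genotypes.

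**Figure D2:**
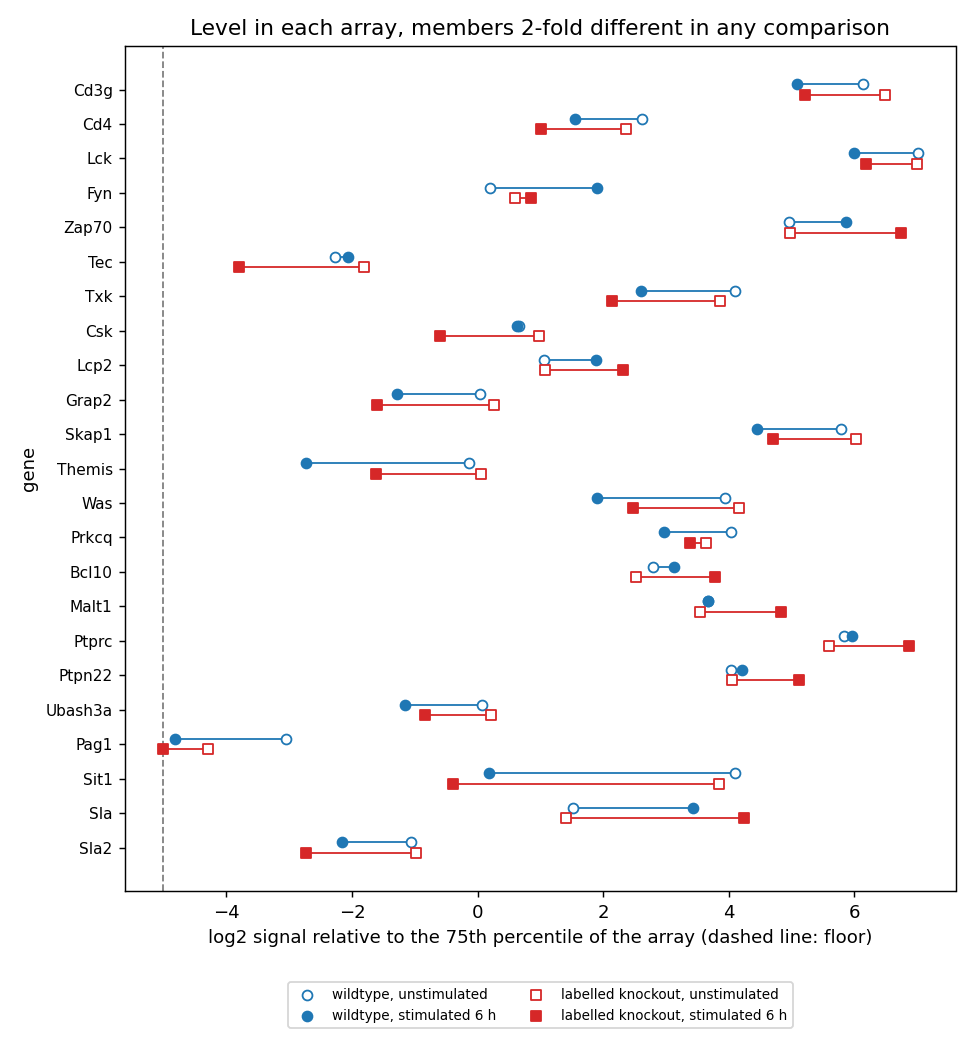
Level (log2, scaled per array, x axis) in each of the 4 arrays for the 23 genes 2-fold different in at least 1 of the 5 comparisons. Circles are wildtype and squares labelled knockout, open symbols unstimulated and filled symbols stimulated, 1 array each, with a line joining the arrays of a genotype. The lines of Sit1 are the longest, and those of Tec, Csk, Fyn and Malt1 differ most between the genotypes.

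Promoter sequences from RefSeq (GRCm38.p6, 250 bases before to 50 after the annotated start) were matched by symbol for 32 of the 39 genes, taking the first listed for each gene. Motifs were searched on both strands. The RUNX letters TGTGGTT were in 3 of 32 promoters (9.38%, against 5.37% of 27025 promoters), those of Lck, Sla2 and Was. The GATA letters AGATAA were in 3 (9.38% against 11.4%) and the TATA letters TATAAA in 4 (12.5% against 14.2%). The EGR letters GCGTGGG were in 2 (6.25% against 4.92%). The ETS letters CCGGAAG were in 1 (3.13% against 9.12%). The NFAT letters TGGAAAA and the CArG box of serum response factor were in 0, against 6.80% and 1.57% of all promoters, and a match or its absence is a description of these windows. The observed over expected CpG ratio was under 0.5 in 24 of the 32, against 57.5% of all promoters, with medians of 0.321 and 0.389.

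Of the 10 genes lower after stimulation in both genotypes, 8 have a listed promoter. Those shown are Sit1, which had the most negative difference and none of these motifs, and the 4 whose promoter holds one, with the motif in capitals (GATA in Cd3g and, on the reverse strand, Ubash3a, and RUNX in Was and, on the reverse strand, Sla2). They were chosen after their values were seen.
Sit1, chr4:43483660-43483959, minus strand: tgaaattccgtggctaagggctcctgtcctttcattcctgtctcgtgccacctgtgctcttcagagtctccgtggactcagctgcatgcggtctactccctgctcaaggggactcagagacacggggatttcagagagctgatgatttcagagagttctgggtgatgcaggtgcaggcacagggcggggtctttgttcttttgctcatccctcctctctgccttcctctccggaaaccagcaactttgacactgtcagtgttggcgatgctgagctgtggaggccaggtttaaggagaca
Cd3g, chr9:44980382-44980681, minus strand: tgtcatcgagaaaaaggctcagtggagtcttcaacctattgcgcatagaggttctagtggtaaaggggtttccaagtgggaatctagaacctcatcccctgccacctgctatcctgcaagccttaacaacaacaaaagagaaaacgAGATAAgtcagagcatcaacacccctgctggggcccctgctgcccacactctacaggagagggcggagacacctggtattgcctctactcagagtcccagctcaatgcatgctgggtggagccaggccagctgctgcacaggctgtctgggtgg
Ubash3a, chr17:31207816-31208115, plus strand: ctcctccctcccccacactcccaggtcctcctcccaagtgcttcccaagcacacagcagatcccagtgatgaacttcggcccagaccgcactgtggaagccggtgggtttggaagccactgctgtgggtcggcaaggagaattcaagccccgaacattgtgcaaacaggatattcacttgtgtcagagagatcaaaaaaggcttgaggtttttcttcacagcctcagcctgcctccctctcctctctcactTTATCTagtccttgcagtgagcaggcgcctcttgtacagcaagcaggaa
Was, chrX:8090442-8090741, minus strand: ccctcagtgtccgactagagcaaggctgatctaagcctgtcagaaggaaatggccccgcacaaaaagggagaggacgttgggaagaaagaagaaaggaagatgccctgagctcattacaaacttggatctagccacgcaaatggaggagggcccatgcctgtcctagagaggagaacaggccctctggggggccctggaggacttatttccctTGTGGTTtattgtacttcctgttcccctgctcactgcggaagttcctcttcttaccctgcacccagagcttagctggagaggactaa
Sla2, chr2:156887172-156887471, minus strand: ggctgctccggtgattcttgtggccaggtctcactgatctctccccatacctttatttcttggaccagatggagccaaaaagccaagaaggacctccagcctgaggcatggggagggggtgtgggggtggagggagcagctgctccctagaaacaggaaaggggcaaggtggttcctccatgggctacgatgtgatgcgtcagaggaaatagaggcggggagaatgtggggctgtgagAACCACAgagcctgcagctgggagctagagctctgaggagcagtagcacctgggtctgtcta
Their differences in wildtype, in this order, were -3.93, -1.05, -1.23, -2.04 and -1.10. The motifs begin at base 147 of the 300 in Cd3g, 252 in Ubash3a, 214 in Was and 239 in Sla2, so that of Ubash3a lies just after the annotated start.

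Without stimulation the genotypes were alike in size of signal for nearly all of these genes. Of 38 measured genes 0 were 2-fold higher and 1 lower in labelled knockout, 2.63% against 4.73% of all measured genes (3.31% higher and 1.42% lower), a share that is not larger than the background. The exception was Pag1 (-1.24), whose call was lost with a pseudocount and which is not in the authors' values. The median was 0.02, beside -0.02 over all genes, and the other 37 differences lay between -0.43 for Cd5 and 0.46 for Tec. With 1 array per group this does not show that the genotypes were the same.

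With stimulation, 2 genes were higher and 3 lower in the array labelled knockout, 13.2% of 38 against 13.1% of all measured genes (4.98% higher and 8.13% lower). With scaling to the median the split was 7 higher and 2 lower, and in the authors' values 1 and 2. A share so near the background is not a result about this group, whose median was 0.17 beside 0.09. The 3 lower genes were all kinases, Tec (-1.74), Csk (-1.21) and Fyn (-1.05). The 2 higher genes were Malt1 (1.16) and Themis (1.12). Only Csk kept its call in all 9 alternatives, though several of these can hardly alter a gene with 1 spot well above the floor. Fyn lost it with scaling to the median (-0.85), Themis with the floor at the 60th percentile (0.66), Tec in 3 alternatives and Malt1 in 3. Ptprc, Ptpn22, Zap70, Nck1 and Sla were just under the threshold (0.92, 0.92, 0.87, 0.82 and 0.81), and all 5 passed it with scaling to the median.

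**Figure D3:**
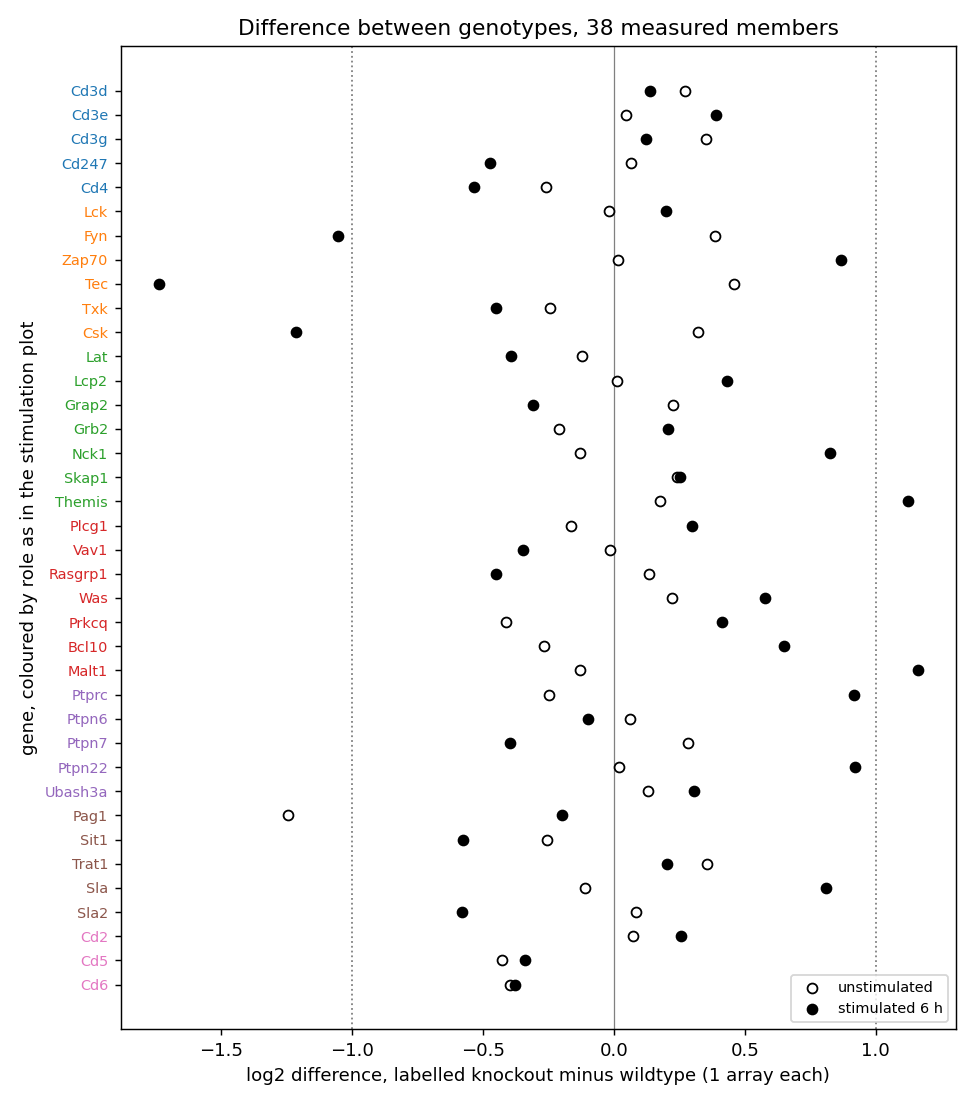
Log2 difference between labelled knockout and wildtype (x axis) for each of the 38 measured genes, unstimulated (open) and stimulated (filled), 1 array each, with dotted lines at 2-fold. Open points other than that of Pag1 lie within 0.46 of zero, while filled points spread from -1.74 for Tec to 1.16 for Malt1.

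The comparison of the stimulation differences asks most directly which part of the response differs with genotype. It was 2-fold or more for 6 of 38 genes, 15.8% against 17.7% of all measured genes (7.07% more positive and 10.6% more negative), again near the background, with a median of 0.05 beside 0.09. With scaling to the median 10 were more positive and 3 more negative, and in the authors' values 3 and 3. The difference was more negative in labelled knockout for Tec (-2.20), Csk (-1.53) and Fyn (-1.44), and more positive for Malt1 (1.29), Ptprc (1.16) and Pag1 (at most 1.05). Csk, Fyn, Malt1 and Ptprc kept this call in all 9 alternatives. Each has 1 probe on 1 spot, well above the floor. The other floors, the brightest probe and the median of spots could thus hardly alter their calls. The Pag1 value rests on the floor, and its sign turned with a lower floor (-0.09). For the 10 genes lower in both genotypes the difference of differences lay between -0.66 for Sla2 and 0.95 for Themis. Themis passed 2-fold in 5 of the 9 alternatives, up to 1.24, and Sla2 in 2, down to -1.38.

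Differences between the stimulated arrays also varied with signal level across all genes. The median labelled knockout minus wildtype difference over all genes was -0.02 at levels of -5 to -3, 0.12 at -1 to 1 and 0.34 at 3 to 5. Malt1, Ptprc and Ptpn22 have mean levels of 3 or more, and Fyn and Csk lie between -1 and 1. With an intensity-dependent normalization, added after seeing this, Malt1 was at 0.96 and lost its call. Tec (-1.66), Csk (-1.22), Fyn (-1.10) and Themis (1.15) kept theirs. Ptprc was at 0.84, Zap70 at 0.74 and Ptpn22 at 0.70, under 2-fold as before.

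Of the 82 other TCR pathway genes listed, all on the array and 79 measured in either stimulation comparison, 14 were 2-fold lower and 7 higher in wildtype (median -0.29). These are 17.7% and 8.86%, beside 12.8% and 14.2% of all measured genes. In labelled knockout 21 were lower and 10 higher (median -0.25), which are 26.6% and 12.7%, beside 13.8% and 13.5%. In both genotypes 10 were lower and 5 higher, where 7.72% and 7.13% of all genes were.

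The calcium branch downstream of PLCG1 held genes on both sides. The inositol trisphosphate receptors Itpr3 (-2.37 and -2.65) and Itpr2 (-1.82 and -1.74) were lower, while Orai1, the calcium channel of the plasma membrane, was higher, with levels of 0.93, 2.55, 0.69 and 3.79. Pik3r1, the regulatory subunit of PI3 kinase (-1.84 and -2.19), and the GTPase Rac2 (-1.79 and -1.99) were lower. Crtam, an adhesion receptor of activated T cells (2.49 and 3.95), and Tagap, a GTPase-activating protein of activated T cells (2.70 and 2.87), were higher. Between the stimulated arrays 5 of 78 of these genes were higher and 7 lower in labelled knockout, 6.41% and 8.97%, near the 4.98% and 8.13% of all genes. Between the unstimulated arrays 0 and 1 of 79 were, where 3.31% and 1.42% of all genes were.

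Where a gene had 2 probes, they mostly pointed the same way. Of the 11 such genes, the probes differed in sign after stimulation in wildtype for Cd6, Ptpn7, Tec and Vav1, each with a gene value under 2-fold, and in labelled knockout for Cd6. In the difference of differences Sla2 was the gene whose probes stood apart in sign with the widest range, at -1.38 and 0.06.

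**Figure D4:**
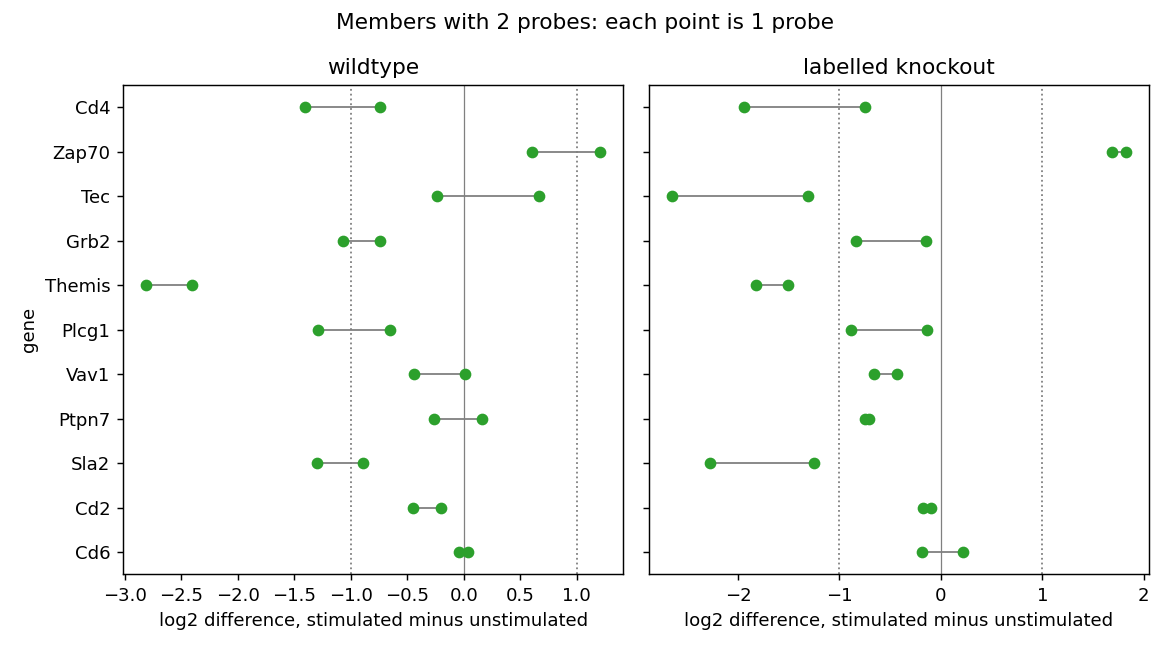
Log2 difference after stimulation for each probe of the 11 genes with 2 probes, in wildtype (left) and labelled knockout (right), 1 point per probe. Both Themis, both Cd4 and both Sla2 probes lie below zero and both Zap70 probes above it in each genotype, while the Tec probes lie on either side of zero in wildtype.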

How the data were processed

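RNA of 4 samples was hybridised to single-colour arrays, 1 µg of total RNA each, per the labels' protocols. The deposited intensity of each spot is what Agilent Feature Extraction 10.7.3.1 left after all its steps, per the submitters' processing notes, with no detection or saturation flags. The authors' deposited log2 values, which the file headers tie to normalization in GeneSpring GX 11.5.1, cover 17878 of 39429 probes and served as an alternative. The sources used here name neither their method nor a genome build. They correlated with quantile-normalized log2 signals of the same array at 0.99995 or more, so scale and direction were settled, and their column medians were 8.54, 8.51, 8.53 and 8.54.

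Spots were averaged as log2, each array was centred on the 75th percentile of its non-control probes, and values under the median of the 40th percentiles were set to it. Probes were named by unversioned accession in RefSeq GRCm38.p6 (names only): 26299 probes, 19896 genes, a gene's probes being averaged. A gene counts as measured when above this floor in an array compared. Values were computed in Python 3.11.15 with pandas 2.3.3 and the procedure was tested on simulated data. These held spot noise and known changes in genes that were not dim, without variation between animals or admixed RNA. The number of arrays limits precision. A test of stimulation pooled over genotypes was not run, since it would take the difference between genotypes as error. The 8 alternatives were scaling to the median, quantile normalization, the authors' values, floors at the 20th and 60th percentile, a pseudocount of 10 signal units, the brightest probe and the median of spots. An intensity-dependent normalization over 40 signal bins was added after seeing the data. Genes past 2-fold in any comparison, and Cd3e, Cd4, Lck, Zap70 and Lat, are given in every array. Of the other pathway genes, the rule names those with the largest mean of both stimulation differences, past 2-fold the same way in both, and some of the genes it covers are not reported here. The genes and lists were chosen with earlier results of these data known. Protein sequence patterns were planned and not analysed here.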

Additional observations from a re-analysis of the deposited data

Results flagged for a closer look

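Tec was the only one of the 38 measured genes whose stimulation differences were opposite in sign in the genotypes and at least 2-fold apart. The stimulation difference was 0.21 in wildtype and -1.98 in labelled knockout, so they differed by -2.20. This difference was not tested, since each value rests on 1 array per group, and setting the floor at the 60th percentile gave -0.48. In the authors' values it was -0.97, also under 2-fold. The wildtype difference of Tec was below 0 in 4 of the 9 alternatives, at -0.30 in the lowest, so the opposite sign did not hold there. Med23 was also opposite in sign, with 0.84 in wildtype, -0.63 in labelled knockout and a difference of -1.47, which was not tested either.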

How the results depend on the processing

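No paired analysis was possible because each group has 1 array, and leaving out an array ends every comparison that uses it. Over the 38 measured genes, 5 comparisons and 9 alternatives, 1697 values were compared. A value stayed on its side of the 2-fold threshold in 1641, mostly genes that were not called and stayed so. The alternatives are not independent checks. Of the 39 genes, 28 have 1 probe, so the brightest probe leaves them unchanged. The authors' values came close to the quantile-normalized ones for the probes they cover. A call was lost in 22 and gained in 34. A called value turned sign in 1 case, the difference of stimulation differences of Pag1, at -0.089 with the floor at the 20th percentile. Of the 15 genes called in wildtype 13 kept their call in every alternative, and of the 19 in labelled knockout 16 did. For the stimulated genotype difference 1 of 5 and for the difference of differences 4 of 6 kept it. The counts of lower and higher genes after stimulation stayed within 1.5 times of 13 and 2 in wildtype and of 12 and 7 in labelled knockout. Between the stimulated arrays, the count of higher genes, 2, became 7 when scaled to the median and 1 with quantile normalization, the authors' values, the floor at the 60th percentile and the intensity-dependent normalization. Between the unstimulated arrays, the count of lower genes, 1, became 0 with the authors' values, the floor at the 60th percentile and the pseudocount. In the difference of differences, the count of more positive genes, 3, became 10 when scaled to the median and 5 under the pseudocount. Scaling to the median moved the median of all genes in wildtype from -0.02 to -0.23 between the stimulated arrays from 0.09 to 0.28 and in the difference of differences from 0.09 to 0.34, and the share of higher genes among all called in the latter from 39.9% to 66.9%. Pag1 and Tec were limited by low signal, and Themis by that of its dimmer probe. With its brightest probe alone Themis kept its call between the stimulated arrays (1.32).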
